A study of Mus musculus with 24 samples.

Results

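The transcripts of 9 Ms4a genes, Ms4a4a, Ms4a4b, Ms4a4c, Ms4a4d, Ms4a6b, Ms4a6c, Ms4a6d, Ms4a7 and Ms4a8a, were followed through the 24 RNA-seq libraries of primary murine bone marrow-derived macrophages (BMDMs). The genes were taken by symbol from a table of 35770 gene names. The 8 groups, of 3 libraries each, held macrophages in control media or in CM from LL2 cells that were WT, KEAP1 KO or NRF2 KO, and every medium was given with vehicle and with CDDO-Me. CM is medium that LL2 cells (a cancer line grown from Lewis lung carcinoma of the mouse) had conditioned for 48 h. The macrophages themselves carried no edit: KEAP1 and NRF2 had been knocked out by CRISPR in the LL2 cells only, and whether each KO line was a single clone is not given in the sources used here. BMDMs in all groups came from C57BL/6 marrow grown with M-CSF at 20 ng/mL, and the age of the mice and the number that gave marrow are not given. CM made up 75% of the medium, and CDDO-Me, a synthetic triterpenoid that activates NRF2, was used at 100 nM for 24 h. In the group names, WT/vehicle means WT CM with vehicle and media/vehicle means naïve macrophages.

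Ms4a proteins pass through the plasma membrane several times and sit beside other receptors, whose signalling they can alter. The best known relatives are Ms4a1, which encodes CD20 of B cells, and Ms4a2, the beta chain of the high-affinity IgE receptor of mast cells. Several members are typical of macrophages. Ms4a4a is known as a marker of alternatively activated macrophages, the state that IL-4 and IL-13 bring about, and its protein associates with the fungal receptor Dectin-1. Ms4a6d is known to pair with the receptor VSIG4 in macrophages, Ms4a7 is widely used to mark tissue and monocyte-derived macrophages, and Ms4a8a has been described on tumor-associated macrophages. Ms4a4b and Ms4a6b are known best from T cells.

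Levels are given in TPM, an abundance corrected for transcript length and for the size of the library, so that genes can be set beside each other. Fold changes are differences of log2(scaled TPM + 1) with their standard error (SE), tested with limma over 13661 genes and called where the Benjamini-Hochberg adjusted p was below 0.05. A gene was tested if it had more than 1 TPM in at least 3 libraries. Of the 9 genes, 8 passed this filter, and Ms4a8a did not. In each library 15702 to 18993 genes were above 0. Replicate 3 of NRF2 KO/vehicle (15702) and replicate 3 with the same CM and CDDO-Me (16299) held the fewest, while the other 22 libraries started at 17817. Leaving out both changed the call of no member in any of the 16 comparisons, but it raised the number of all genes called in several, for example from 988 to 2590 for WT CM against media with vehicle and from 3809 to 5843 for CDDO-Me in WT CM, so the shares of all genes given beside the members depend on these libraries. The summed TPM of 8 macrophage markers was between 14930 and 38390 in every library, most of it Lyz2, with group means of 13300 to 29500. Csf1r and Adgre1 had group means of 710 to 1230 and 553 to 850 TPM. The markers did not move together. In WT CM and KEAP1 KO CM with CDDO-Me, Cd68 was at 725 and 708 TPM, against 1260 to 2110 elsewhere. Fcgr1 was at 479 and 473 TPM there, against 30.8 to 84.5 elsewhere. The 10 fibroblast markers summed to 227 to 2838 TPM and were lowest in replicate 3 in each of the 8 groups. The 3 samples of a group were described as independent, but no source says that they came from separate mice, so the p-values measure the spread between these samples.

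All 9 genes lie in 1 cluster on mouse chromosome 19. In the GENCODE annotation of GRCm39, the build the authors used, 21 family genes span 10939657 to 11618215 (679 kb), and the 9 members lie between 11044835 and 11582213. Ms4a4a is at chr19:11352823-11370154 on the plus strand, Ms4a7 at chr19:11298403-11313510 and Ms4a6d at chr19:11563968-11582213, both on the minus strand, and Ms4a4c at chr19:11382131-11404610 on the plus strand. Each member has 7 exons in its canonical transcript. The sequences just before the canonical start are shown for Ms4a4a and Ms4a7, which fell most with CDDO-Me in WT CM, and for Ms4a4c, which rose there, with Ms4a4b as the relative of Ms4a4c that was not called. They are the reference sequence of GRCm39, read 5′ to 3′ on the strand of the gene, chr19:11352637-11352822 on the plus strand for Ms4a4a, chr19:11313511-11313758 on the minus strand for Ms4a7, and chr19:11384767-11385016 and chr19:11420687-11420916 on the plus strand for Ms4a4c and Ms4a4b. Bases within 250 of the start that belong to an exon of another transcript of the gene were left out, which leaves 186 bases for Ms4a4a, 248 for Ms4a7, 250 for Ms4a4c, and 230 for Ms4a4b. Capitals mark a match to the antioxidant response element in Ms4a4a and to a STAT6 motif in Ms4a7.
Ms4a4a: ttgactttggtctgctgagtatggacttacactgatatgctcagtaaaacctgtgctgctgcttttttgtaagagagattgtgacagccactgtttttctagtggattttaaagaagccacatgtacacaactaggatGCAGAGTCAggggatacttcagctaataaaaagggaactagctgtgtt
Ms4a7: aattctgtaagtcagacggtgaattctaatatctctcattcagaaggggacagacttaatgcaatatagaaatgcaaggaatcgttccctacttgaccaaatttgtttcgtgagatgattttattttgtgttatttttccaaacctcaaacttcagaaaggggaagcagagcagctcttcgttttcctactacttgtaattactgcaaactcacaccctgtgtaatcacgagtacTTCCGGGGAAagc
Ms4a4c: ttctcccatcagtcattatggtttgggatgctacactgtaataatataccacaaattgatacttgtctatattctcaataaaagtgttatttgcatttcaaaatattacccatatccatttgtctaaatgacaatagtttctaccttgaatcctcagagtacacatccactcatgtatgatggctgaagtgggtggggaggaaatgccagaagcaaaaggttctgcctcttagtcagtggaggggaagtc
Ms4a4b: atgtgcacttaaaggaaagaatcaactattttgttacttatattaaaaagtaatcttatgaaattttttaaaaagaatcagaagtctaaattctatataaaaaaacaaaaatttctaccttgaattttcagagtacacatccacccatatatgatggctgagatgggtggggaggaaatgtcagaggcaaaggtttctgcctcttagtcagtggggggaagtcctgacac

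Motifs were searched on both strands in the full 250 bases before the canonical start, in the 9 members and in 13702 promoters of the tested genes. The search included the exon bases left out of the sequences shown. The antioxidant response element, the core bound by NRF2 (TGACNNNGC), was found in 1 of the 9 members, Ms4a4a, on the minus strand 112 to 104 bases before the start, and in 10.6% of all promoters. The STAT6 motif (TTCNNNNGAA) was found in 1 member, Ms4a7, 15 to 6 bases before the start, and in 5.44% of all. No member held the interferon-stimulated response element (GAAANNGAAA, in 3.25% of all) or a kB motif (in 4.4%). A PU.1 core (GAGGAA) was in Ms4a4b and Ms4a4c, and in 23.3% of all, and an AP-1 motif (TGANTCA) was in Ms4a8a, and in 4.81% of all. The promoters of Ms4a4b and Ms4a4c were alike: 110 of 125 aligned bases (88%) were identical. Those of Ms4a6b and Ms4a6c shared 135 of 167 aligned bases (80.8%). A match is a run of letters and was not tested as a binding site.

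Near-identical copies limit some of the values. Of the 1394 distinct 31-base words in Ms4a4a transcripts, 0 occurred in another gene, and 1.39% of those of Ms4a7 occurred in another gene of the table. The share was 16% for Ms4a4c, of which 232 of 1904 words were in Ms4a4b, and 6.77% to 9.13% for Ms4a4b, Ms4a4d, Ms4a6b, Ms4a6c and Ms4a6d. Ms4a6c overlaps the antisense lncRNA BE692007, which shares 3693 of its 4952 words and is not among the gene names of the table. Whether the reads were assigned by strand is not given, so reads of Ms4a6c and of this antisense RNA cannot be told apart. Shorter antisense overlaps exist for Ms4a4a, Ms4a4c and Ms4a6b.

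In media/vehicle BMDMs the 9 genes summed to 1258 ± 22.8 TPM (SD, n = 3), of which Ms4a7 made up 68.4%, Ms4a6d 13.9% and Ms4a4a 5.34%. The sum was 2318 ± 315 TPM in WT/vehicle and 2470 ± 785 in KEAP1 KO/vehicle BMDMs, where Ms4a4a supplied 33.5% and 32.6%. It was 1313 ± 131.5 TPM in NRF2 KO/vehicle and 1439 ± 101 in media/CDDO-Me BMDMs. With CDDO-Me it was 733 ± 72.4 TPM in WT CM and 961 ± 79.2 in KEAP1 KO CM, below every library of the other groups, and Ms4a4a supplied 0.589% and 1.47%. In NRF2 KO CM/CDDO-Me the sum was 1979 ± 270 TPM. These are levels, given with no test.

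**Figure D1:**
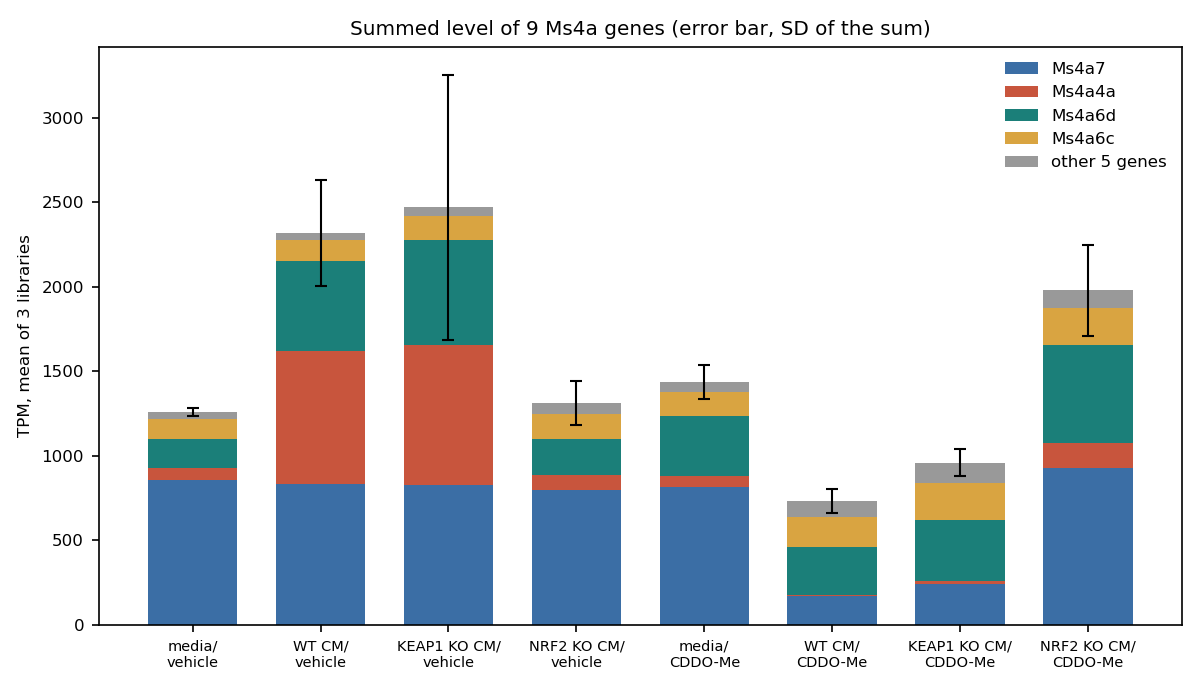
Summed TPM of the 9 Ms4a genes in each of the 8 groups, as stacked means of 3 libraries by gene, with the SD of the sum as error bar. The sum was lowest in WT CM/CDDO-Me (733) and KEAP1 KO CM/CDDO-Me (961), where the segment of Ms4a4a almost vanishes.

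Ms4a7 had the highest level of the 9 genes in 5 of the 8 groups, with a mean over all libraries of 685 TPM, followed by Ms4a6d (391), Ms4a4a (250.4), Ms4a6c (161) and Ms4a6b (55.8). Ms4a4d (9.64 TPM), Ms4a4c (4.5) and Ms4a4b (1.70) were low, and Ms4a8a was near absent. Ms4a8a was above 1 TPM in 1 of 24 libraries, replicate 3 of WT/vehicle at 1.44 TPM, and was listed at 0 in 7 libraries. Its other 2 WT/vehicle libraries were at 0.331 and 0.402 TPM, so no difference between groups was tested for it. Between the highest and the lowest group mean Ms4a4a spanned 183-fold, Ms4a4c 36-fold, Ms4a4d 9.33-fold, Ms4a7 5.35-fold and Ms4a6d 3.56-fold, and Ms4a6c 1.97-fold.

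**Figure D2:**
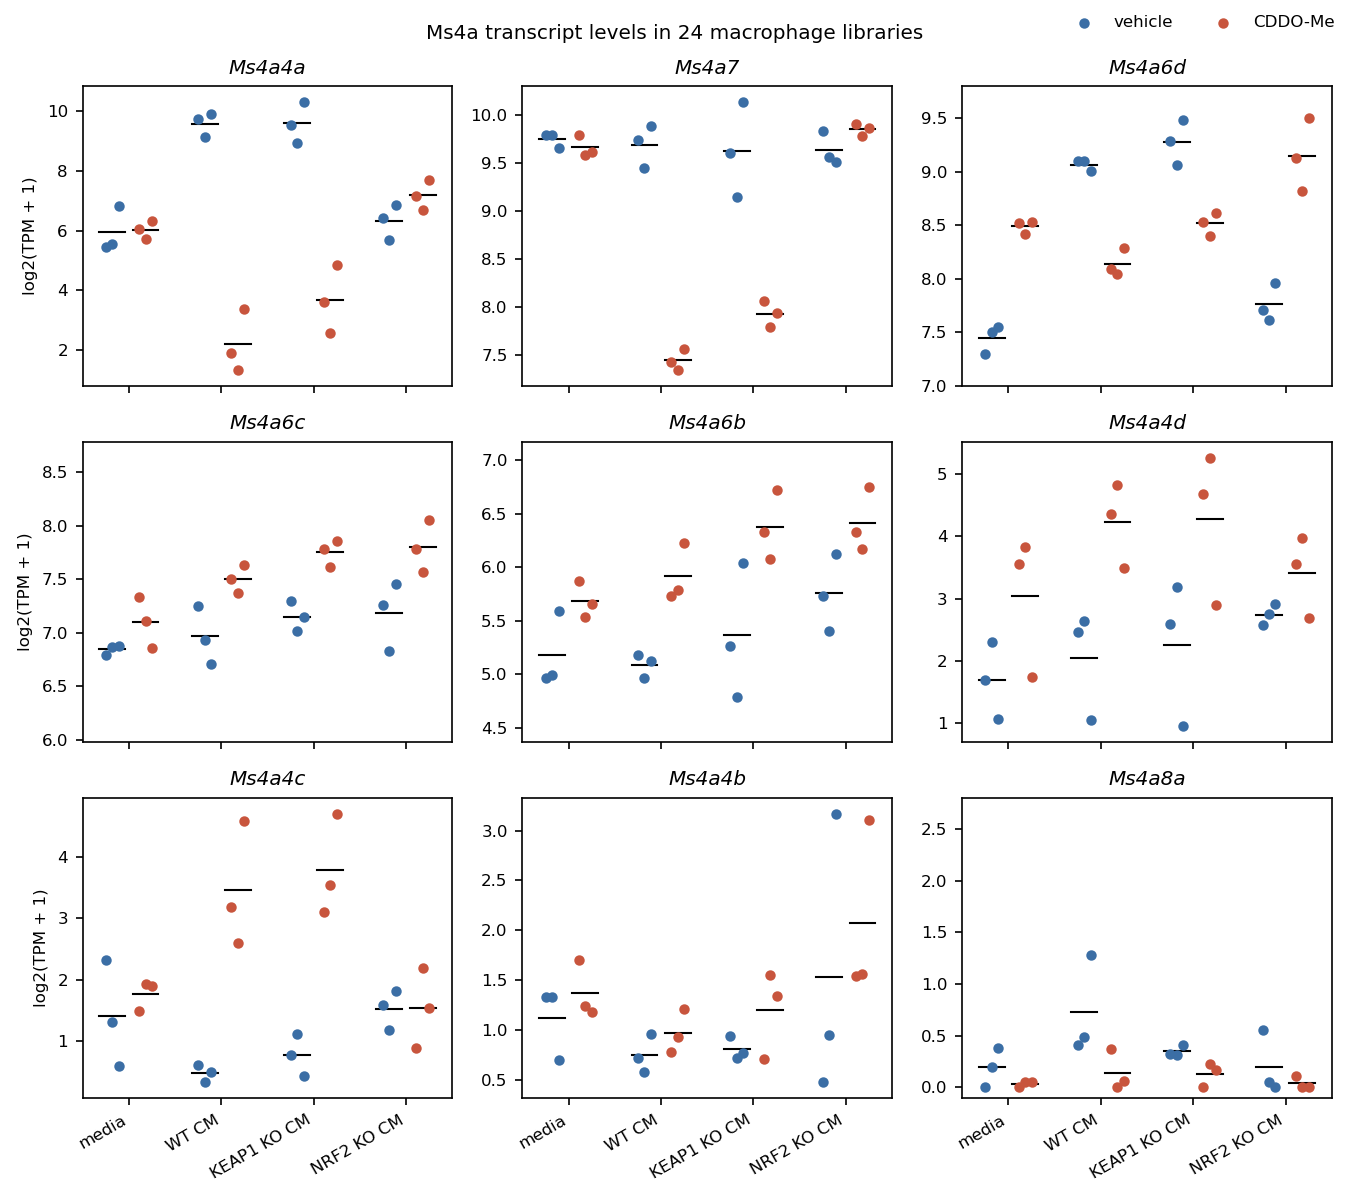
log2(TPM + 1) of each Ms4a gene in the 24 libraries, with vehicle in blue and CDDO-Me in red, the 3 replicates from left to right as points and the group mean as a bar. Each panel has its own axis, and the 3 Ms4a4a libraries of WT CM/CDDO-Me, between 1.53 and 9.42 TPM, lie far below the 3 of WT/vehicle, between 558 and 953 TPM.

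The first question was what CM alone did to the family. WT CM and KEAP1 KO CM each raised Ms4a4a and Ms4a6d, the first a marker of alternative activation, and changed no other member by the test. Ms4a4a was at 43.0, 46.2 and 113 TPM in the media/vehicle libraries (replicates 1 to 3), at 845, 558 and 953 in WT/vehicle, and at 741, 491 and 1264 in KEAP1 KO/vehicle. The lowest library with either CM was thus well above the highest media library, and the groups did not overlap. Ms4a4a rose by 3.70 on the log2 scale with WT CM (SE 0.59, limma adjusted p = 0.00035) and by 3.64 with the medium of KEAP1 KO cells (SE 0.59, adjusted p = 0.00036). In mean TPM that is 11.6-fold and 12.3-fold, or 17.6-fold and 18.6-fold without replicate 3 of media/vehicle. The lowest folds with 1 library left out were 9.86 with WT CM (without replicate 1 of media/vehicle) and 9.13 with KEAP1 KO CM (without replicate 3 of KEAP1 KO/vehicle). Ms4a6d was at 156, 180.3 and 187 TPM in media/vehicle, at 547, 546 and 512 in WT/vehicle, and at 622, 532 and 712 in KEAP1 KO/vehicle. Here too the groups were apart, with a rise of 1.68 with WT CM (SE 0.18, adjusted p = 2.76e-06) and of 1.82 with that of KEAP1 KO cells (SE 0.18, adjusted p = 1.01e-06). Of the 8 members tested, 2 were called in each comparison, both higher. Against media/vehicle, 7.23% of all genes were called with WT CM (4.38% higher, which is 599 of 988 called genes, and 48.2% of those called without scaling between libraries) and 8.06% with KEAP1 KO CM (4.87% higher), and the comparisons share the media/vehicle libraries.

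Ms4a7 had no such rise. It was at 885, 886 and 810 TPM in media/vehicle, at 859, 698 and 944 in WT/vehicle and at 781, 567 and 1127 in KEAP1 KO/vehicle, and the groups overlapped. Its log2 difference was 0.02 (95% interval -0.39 to 0.42) with WT CM and -0.11 (-0.52 to 0.29) with KEAP1 KO CM. Ms4a6b, Ms4a6c and Ms4a4d had differences between -0.03 and 0.55, and Ms4a4b and Ms4a4c between -0.89 and -0.30, none called. The median over the 8 members was 0.10 and 0.24, beside 0.01 over all genes in both comparisons.

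NRF2 KO CM gave another picture, and 0 of the 8 members were called against media/vehicle. Over all genes 0.00732% were called, which is 1 gene, and no member had an unadjusted p below 0.05. Ms4a4a was at 84.3, 51.1 and 114.5 TPM with NRF2 KO CM, overlapping the media libraries, with a difference of 0.37 (95% interval -0.87 to 1.61). Ms4a6d was at 209, 195 and 248 TPM, above all 3 media libraries but by 0.31 (-0.07 to 0.69). The direct comparison of WT/vehicle with NRF2 KO/vehicle called 2 of 8 members, with 10.6% of all genes called. Ms4a4a was higher with WT CM by 3.33 (SE 0.59, adjusted p = 0.000985) and Ms4a6d by 1.37 (SE 0.18, adjusted p = 4.03e-05). Without the replicate 3 libraries of both NRF2 KO CM groups these differences were 3.64 and 1.51. Between KEAP1 KO/vehicle and WT/vehicle 0 of 8 members and 0% of all genes were called, and 0 members had an unadjusted p below 0.05. The difference was -0.06 for Ms4a4a (95% interval -1.30 to 1.18) and 0.14 for Ms4a6d (-0.24 to 0.52).

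**Figure D3:**
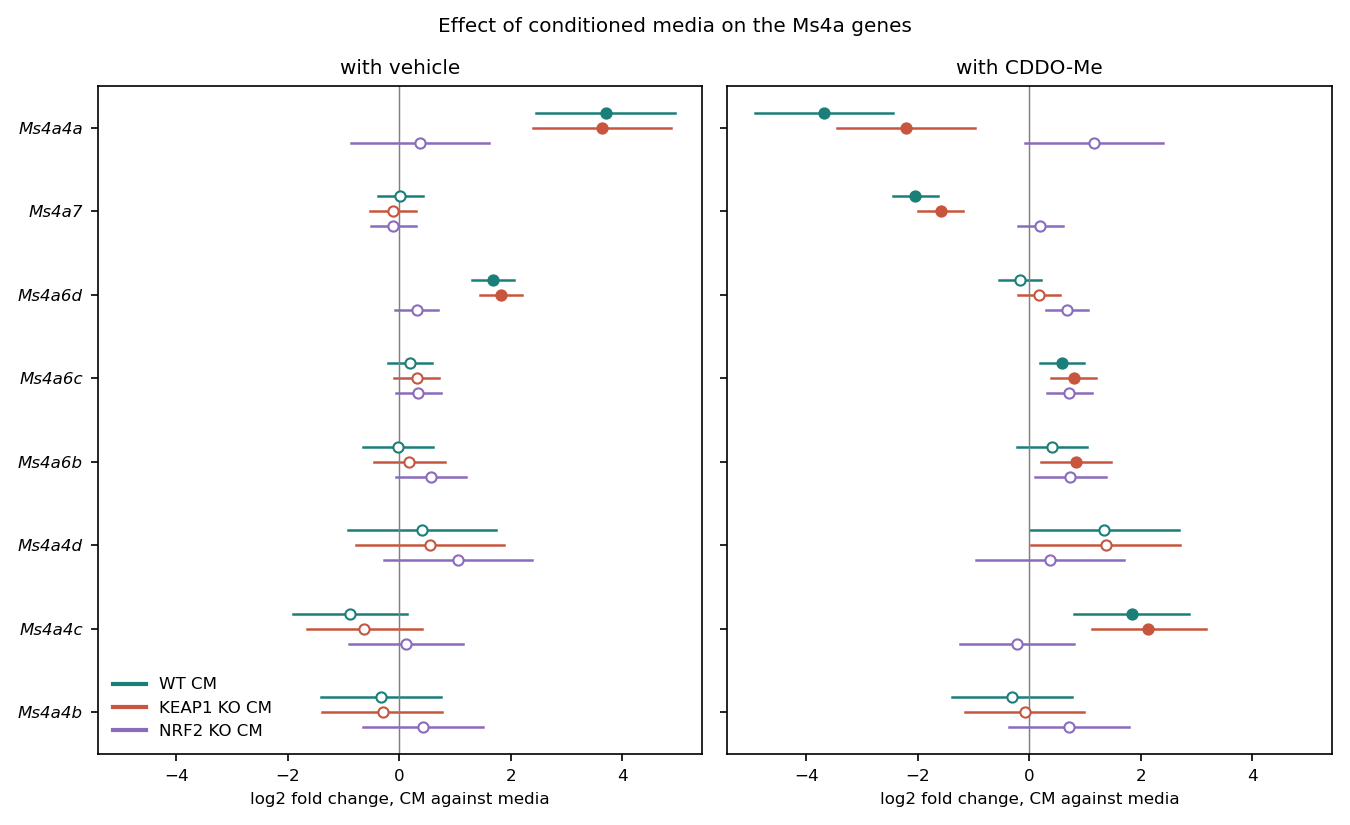
Log2 fold change of 8 Ms4a genes with each CM against control media, with vehicle (left) and with CDDO-Me (right). Points are limma estimates, lines their 95% intervals, and filled points passed an adjusted p of 0.05. With vehicle, Ms4a4a and Ms4a6d have the filled points, to the right of 0, and with CDDO-Me Ms4a4a and Ms4a7 have them to the left in WT CM and KEAP1 KO CM.

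CDDO-Me was then compared with vehicle within each medium. In WT CM 7 of the 8 members were called, 3 lower and 4 higher, with 27.9% of all genes called, 13.4% lower and 14.4% higher (1972 of 3809 called genes, and 39.1% of those called without scaling between libraries). All 3 that fell, Ms4a4a, Ms4a7 and Ms4a6d, are the most abundant members in macrophages with WT CM. Ms4a4a was at 2.71, 1.53 and 9.42 TPM in WT CM/CDDO-Me against 845, 558 and 953 in WT/vehicle. It fell by 7.28 on the log2 scale (SE 0.59, limma adjusted p = 9.78e-09), 172-fold in mean TPM, to below all 6 media libraries. Without replicate 3 of WT CM/CDDO-Me, the highest of the treated libraries, the fold of means was 371, and without replicate 2 of that group it was 129. Ms4a7 was at 171, 161 and 188 TPM with CDDO-Me and between 698 and 944 with vehicle. It fell by 2.12 (SE 0.19, adjusted p = 4.68e-08), 4.82-fold. Ms4a6d was at 271, 263.5 and 312 TPM with CDDO-Me and fell by 0.79 (SE 0.18, adjusted p = 0.00203), 1.90-fold, and stayed above the media/vehicle libraries. For the 3 genes the groups did not overlap.

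The 4 members that rose with CDDO-Me in WT CM are less abundant. Ms4a4c was at 0.523, 0.262 and 0.412 TPM in WT/vehicle and at 8.09, 5.07 and 22.8 in WT CM/CDDO-Me. All 3 treated libraries were higher, replicate 3 the most, and the gene rose by 3.10 (SE 0.49, adjusted p = 5.45e-05), 30.1-fold in mean TPM. At these low levels the size depends on the pseudocount, with 4.11 at 0.25 and 1.80 at 4, and without replicate 3 of WT CM/CDDO-Me the fold of means was 16.5. Ms4a4d was at 4.51, 5.23 and 1.08 TPM with vehicle and at 19.5, 27.2 and 10.2 with CDDO-Me, a rise of 2.30 (SE 0.63, adjusted p = 0.00913). Ms4a6b went from 35.3, 30.2 and 33.8 TPM to 52.3, 54.1 and 74.0 and rose by 0.96 (SE 0.30, adjusted p = 0.0208). Ms4a6c went from 151, 121.5 and 104 TPM to 181, 165 and 198 and rose by 0.67 (SE 0.19, adjusted p = 0.0115). None of these 4 overlapped between the groups, and in all 7 of 8 members did not, beside 53.5% of all genes. Ms4a4b, at 0.5 to 1.32 TPM in the 6 libraries, differed by 0.28 (95% interval -0.79 to 1.36). Of the 7 calls, 3 rested on single libraries. Ms4a4d was not called without replicate 3 of WT/vehicle (adjusted p = 0.0621), Ms4a6b without replicate 2 of WT/vehicle (0.0761) or replicate 3 of WT CM/CDDO-Me (0.106), and Ms4a6c without replicate 3 of WT/vehicle (0.0626) or of WT CM/CDDO-Me (0.0577).

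KEAP1 KO CM gave the same directions for each member. Again 7 of 8 were called, 3 lower and 4 higher, with 28.8% of all genes called, 14.3% lower and 14.4% higher (1973 of 3932 called genes, and 34.6% without scaling). Ms4a4a was at 11.3, 4.92 and 27.7 TPM with CDDO-Me and fell by 5.75 (SE 0.59, adjusted p = 2.55e-07), 56.8-fold in mean TPM. The fold was 103 without replicate 3 of KEAP1 KO CM/CDDO-Me and 42.1 without replicate 3 of KEAP1 KO/vehicle. Ms4a7 was at 266, 221 and 243 TPM and fell by 1.53 (SE 0.19, adjusted p = 3.59e-06), 3.39-fold. For both genes the highest treated library was below the lowest vehicle library. Ms4a6d, at 369.5, 337 and 391 TPM, fell by 0.59 (SE 0.18, adjusted p = 0.0181). Ms4a4c went from 0.711, 1.17 and 0.341 TPM to 7.59, 10.6 and 24.9 and rose by 3.14 (SE 0.49, adjusted p = 4.5e-05), 19.4-fold in mean TPM (12.3-fold without replicate 3 of KEAP1 KO CM/CDDO-Me, and 1.94 on the log2 scale with a pseudocount of 4). Ms4a6b rose by 1.18 (SE 0.30, adjusted p = 0.00476) and Ms4a6c by 0.77 (SE 0.19, adjusted p = 0.00408). Ms4a4d rose by 2.17 (SE 0.63, adjusted p = 0.013) from 5.05, 8.12 and 0.947 TPM to 24.4, 37.1 and 6.41, and here the groups overlapped, since replicate 3 of KEAP1 KO CM/CDDO-Me (6.41) lay below replicate 2 of KEAP1 KO/vehicle (8.12). In all 6 of 8 members did not overlap, beside 54.1% of all genes. The call of Ms4a4d was lost without replicate 3 of KEAP1 KO/vehicle (adjusted p = 0.0941) or replicate 1 or 2 of KEAP1 KO CM/CDDO-Me (0.0556 and 0.0789), and with the compared groups alone (0.0535). That of Ms4a6d was lost without replicate 1 or 3 of KEAP1 KO/vehicle (0.0517 and 0.0985) or replicate 2 of KEAP1 KO CM/CDDO-Me (0.0865).

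In control media CDDO-Me called 1 of 8 members, with 6.02% of all genes called. Ms4a6d rose from 156, 180.3 and 187 TPM to 366, 341 and 368, by 1.06 (SE 0.18, adjusted p = 0.000803), and the groups were apart. With the replicate number as a block, 2 more were called (10.7% of all genes), Ms4a4d at 1.35 (adjusted p = 0.0153) and Ms4a6b at 0.52 (adjusted p = 0.0493). Ms4a4a was at 65.4, 51.8 and 79.3 TPM and differed by 0.10 (95% interval -1.14 to 1.34), and Ms4a7, at 889, 768 and 785 TPM, by -0.06 (-0.47 to 0.34). In NRF2 KO CM 2 of 8 were called, with 9.61% of all genes. Ms4a6d rose from 209, 195 and 248 TPM to 557, 450.2 and 723, by 1.42 (SE 0.18, adjusted p = 2.35e-05), its highest level in any group with CDDO-Me, and with the compared groups alone it was not called (adjusted p = 0.0935). Ms4a6c rose from 153, 113 and 174 TPM to 219, 189 and 264, by 0.65 (SE 0.19, adjusted p = 0.0353). That call was lost with no filter (0.0622), with the compared groups alone (0.548) and without any 1 of 4 of the 6 libraries, replicate 1 or 2 of NRF2 KO/vehicle (0.0553 and 0.155, the latter at 0.43) and replicate 1 or 3 of NRF2 KO CM/CDDO-Me (0.0745 and 0.15). The block (14.5% of all genes) added Ms4a4a, at 141, 102 and 208 TPM and 0.89 higher (adjusted p = 0.0264), and Ms4a6b, 0.69 higher (adjusted p = 0.00703). Ms4a7 was at 959, 881 and 937 TPM, 0.25 higher (95% interval -0.16 to 0.65).

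**Figure D4:**
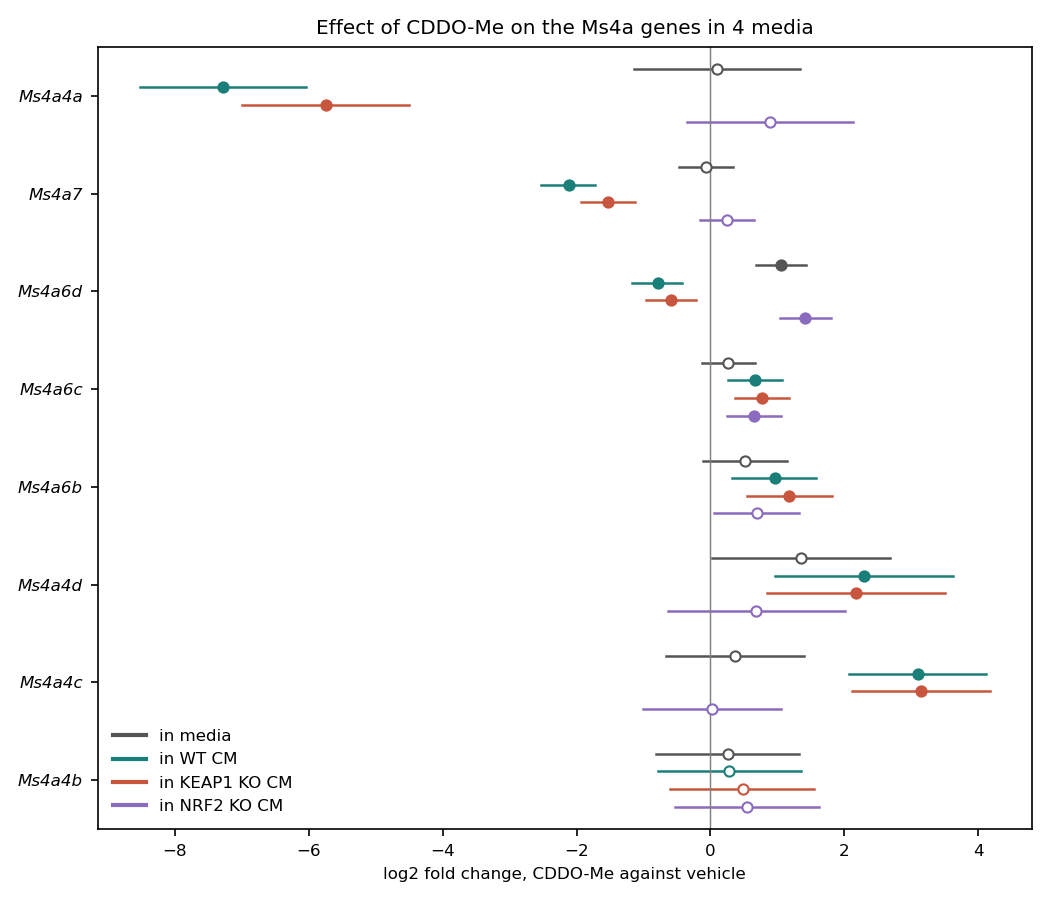
Log2 fold change of 8 Ms4a genes with CDDO-Me against vehicle in each of 4 media. Points are limma estimates, lines their 95% intervals, and filled points passed an adjusted p of 0.05. Ms4a4a, Ms4a7 and Ms4a6d lie left of 0 in WT CM and KEAP1 KO CM, while Ms4a6d lies right of 0 in media and NRF2 KO CM.

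Whether the effect of CDDO-Me depended on the medium was tested by interaction contrasts. Against control media, 4 of 8 members differed in WT CM, with 15.3% of all genes called, and 4 of 8 in KEAP1 KO CM, with 14.8%. The effect on Ms4a4a was lower, at -7.38 in WT CM (SE 0.84, adjusted p = 2.22e-06) and -5.86 in KEAP1 KO CM (SE 0.84, adjusted p = 4.29e-05) than in media. For Ms4a7 the effect was lower too, at -2.06 (SE 0.27, adjusted p = 1.56e-05) and -1.47 (SE 0.27, adjusted p = 0.000691). Ms4a6d turned direction: it rose in media and fell in both CM, a difference of -1.85 (SE 0.26, adjusted p = 2.53e-05) and -1.64 (SE 0.26, adjusted p = 0.000111). The rise of Ms4a4c was larger by 2.73 (SE 0.69, adjusted p = 0.00954) and 2.77 (SE 0.69, adjusted p = 0.00857). For Ms4a4b, Ms4a4d, Ms4a6b and Ms4a6c the differences from media were between 0.02 and 0.95 and were not called. Between NRF2 KO CM and media 0 of 8 members and 0% of all genes differed, and 0 members had an unadjusted p below 0.05. Between KEAP1 KO CM and WT CM 0 of 8 and 0% of all genes differed, and 1 member had an unadjusted p below 0.05, Ms4a7. Its fall was smaller in KEAP1 KO CM by 0.59 (95% interval 0.01 to 1.16, adjusted p = 1), and that of Ms4a4a by 1.52 (-0.23 to 3.28). These intervals and unadjusted p-values come from the fit without the replicate number. With the number as a block, the SE of the Ms4a4a difference was 0.37 in place of 0.84. It was still not called (limma adjusted p = 0.562).

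With CDDO-Me present, WT CM and KEAP1 KO CM were therefore set against media/CDDO-Me as well. In WT CM 4 of 8 members were called, with 26.8% of all genes, and in KEAP1 KO CM 5 of 8, with 22.6%. Ms4a4a, which either CM had raised with vehicle, was now lower, at -3.68 with WT CM (SE 0.59, adjusted p = 8.49e-05) and -2.21 with KEAP1 KO CM (SE 0.59, adjusted p = 0.0095). Ms4a7 was lower too, at -2.05 (SE 0.19, adjusted p = 1.05e-07) and -1.59 (SE 0.19, adjusted p = 3.54e-06). Ms4a4c was higher by 1.84 (SE 0.49, adjusted p = 0.00785) and 2.14 (SE 0.49, adjusted p = 0.00291), and Ms4a6c by 0.59 (adjusted p = 0.0278) and 0.80 (adjusted p = 0.00402). Ms4a6b was called with KEAP1 KO CM at 0.84 with an adjusted p of 0.0499, and without any 1 of the libraries except replicate 2 of KEAP1 KO CM/CDDO-Me that call was lost (adjusted p of 0.0749 to 0.232). It was also lost with another scaling (0.052), without scaling between libraries (0.0653) and with no filter (0.0923). A pseudocount of 0.25 (0.0514) and a fit without the variance trend (0.0538) lost it too. With the replicate number as a block (34% of all genes called with WT CM, 30.3% with KEAP1 KO CM) Ms4a4d was called too, at 1.35 with WT CM (adjusted p = 0.00489) and 1.37 with KEAP1 KO CM (adjusted p = 0.00504). The difference for Ms4a6d was -0.17 (95% interval -0.54 to 0.21) and 0.18 (-0.20 to 0.56). Without replicate 3 of WT CM/CDDO-Me the calls of Ms4a4c (0.0681) and Ms4a6c (0.113) were lost, and that of Ms4a6c also without replicate 1 of that group (0.0751) or replicate 2 or 3 of media/CDDO-Me (0.0807 and 0.107) and without scaling between libraries (0.0731). The call of Ms4a4a in KEAP1 KO CM was lost without replicate 2 of KEAP1 KO CM/CDDO-Me (0.0675), and Ms4a4d was called without replicate 3 of that group, at 2.03 (0.0341). NRF2 KO CM called 0 of 8 members, with 0.19% of all genes, and 3 members had an unadjusted p below 0.05. With the block 4 were called, with 1.17% of all genes: Ms4a4a at 1.16 (adjusted p = 0.0383), Ms4a6b at 0.74 (0.0373), Ms4a6c at 0.72 (0.0379) and Ms4a6d at 0.67 (0.0151).

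The order of the group means shows how the members differ. For Ms4a4a it ran from KEAP1 KO/vehicle (832 TPM) and WT/vehicle (785), whose libraries overlap, through NRF2 KO CM/CDDO-Me (150.5), NRF2 KO/vehicle (83.3), media/vehicle (67.5) and media/CDDO-Me (65.5), to KEAP1 KO CM/CDDO-Me (14.6) and WT CM/CDDO-Me (4.55). For Ms4a7 the other 6 groups ran from 926 down to 801 TPM and overlapped from one to the next, and KEAP1 KO CM/CDDO-Me (243 ± 22.8 TPM) and WT CM/CDDO-Me (173 ± 13.4) stood apart. For Ms4a6d it ran from KEAP1 KO/vehicle (622), NRF2 KO CM/CDDO-Me (577) and WT/vehicle (535), which overlap, through KEAP1 KO CM/CDDO-Me (366) and media/CDDO-Me (358), which overlap, and WT CM/CDDO-Me (282), down to NRF2 KO/vehicle (217) and media/vehicle (174.5). Ms4a4c was highest in KEAP1 KO CM/CDDO-Me (14.4 ± 9.26 TPM) and WT CM/CDDO-Me (12.0 ± 9.505), which overlap, and at 2.435 TPM or lower in the other 6 groups. Ms4a6b and Ms4a6c were highest in NRF2 KO CM/CDDO-Me (85.4 and 224 TPM).

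Along the chromosome, the members that fell with CDDO-Me in WT CM and KEAP1 KO CM and those that rose lay in runs. Ms4a14, Ms4a7 and Ms4a4a follow each other and all fell. The next 5 genes, Ms4a4c, Ms4a4b, Ms4a6c, Ms4a6b and Ms4a4d, had positive differences, 4 of them called, and Ms4a6d, which comes after them, fell. This order was seen after the values were known and was not tested. Ms4a7 and Ms4a6d are on the minus strand and Ms4a4a is on the plus strand.

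**Figure D5:**
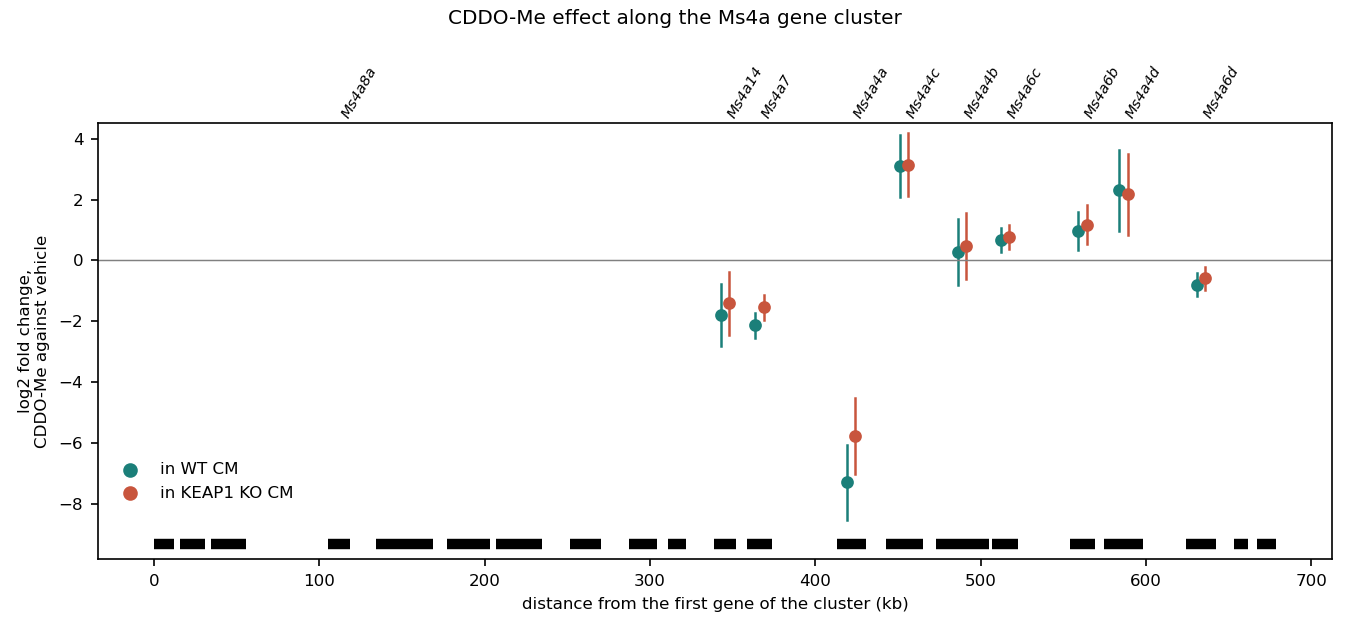
Log2 fold change with CDDO-Me against vehicle in WT CM and KEAP1 KO CM, with 95% intervals, for 8 Ms4a members and Ms4a14, placed at the middle of each gene by its distance in kb from the first gene of the cluster. Black bars at the foot are the 21 family genes of the cluster. Ms4a14, Ms4a7 and Ms4a4a lie below 0, the next 5 genes above 0 and Ms4a6d below 0.

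Of 14 other family genes, the table lists all, and 3 passed the filter: Ms4a14 and the related Tmem176a and Tmem176b. Ms4a14 was at 12.4, 9.54 and 17.8 TPM in WT/vehicle and at 2.03, 2.54 and 3.99 in WT CM/CDDO-Me. It fell by 1.78 (SE 0.49, adjusted p = 0.0086) there and by 1.41 in KEAP1 KO CM (SE 0.49, adjusted p = 0.0357). Its highest values, 72.6 and 43.5 TPM, were in the 2 NRF2 KO CM replicate 3 libraries with few genes detected. Ms4a4b behaved alike there, at 7.99 and 7.63 TPM, while its other 22 libraries were between 0.398 and 2.25 TPM. Without replicate 3 of NRF2 KO/vehicle Ms4a4b was called higher with CDDO-Me in NRF2 KO CM, at 1.39 (adjusted p = 0.0244), and without replicate 3 of NRF2 KO CM/CDDO-Me the difference was -0.02. Ms4a1, the B cell gene, did not exceed 0.145 TPM, and Ms4a3, known from granulocyte and monocyte progenitors, did not exceed 0.428 TPM.

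Of 8 genes listed as reported partners of the family, all were tested. Clec7a, which encodes Dectin-1, was at 668 ± 218 TPM in WT/vehicle and 564 ± 96.8 in WT CM/CDDO-Me, a difference of -0.08 (95% interval -0.76 to 0.60), while Ms4a4a fell 172-fold. Vsig4, the partner of Ms4a6d, stayed at or below 2.67 TPM in every library. Trem2, a lipid receptor of macrophages, was at 1412 ± 50.9 TPM in WT/vehicle and 821 ± 86.1 in WT CM/CDDO-Me. The difference of -0.66 (SE 0.34) was not called (adjusted p = 0.184), though the groups did not overlap, beside 53.5% of all genes. The SE came from the fit over all groups. In that fit Trem2 was at 447.9 and 531.5 TPM in the NRF2 KO CM replicate 3 libraries, and at 1356 to 1690 in the other NRF2 KO CM libraries. With CDDO-Me in WT CM 1 of 8 was higher, the inflammasome sensor Nlrp3, by 1.87 (SE 0.21, adjusted p = 5.68e-07), and 1, the kinase Syk, fell by 0.50 on the log2 scale (SE 0.14, adjusted p = 0.0128). In KEAP1 KO CM Nlrp3 rose by 2.04 (SE 0.21, adjusted p = 1.87e-07), and the other 7 were not called.

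The other genes of the macrophage states moved in the same groups. Of 13 alternative activation genes, 13 rose with WT CM against media with vehicle (median 3.71, over all genes 0.01), Retnla and Arg1 among them, and with CDDO-Me in WT CM 11 fell and 1 rose (median -3.04, over all genes -0.01). Ms4a4a and Ms4a6d thus rose and fell beside this list in these comparisons, and Ms4a7 fell without having risen. In control media and in NRF2 KO CM, Ms4a6d rose with CDDO-Me (1.06 and 1.42). There 0 and 1 of the 13 alternative activation genes rose (medians -0.08 and -0.02). Of 24 type I interferon response genes, 23 rose with CDDO-Me in WT CM (median 2.39), and of 13 interferon gamma response genes 13 rose (median 6.42), with Cxcl9 at 1410 TPM against 0.0583. Ms4a4c rose in the same comparison. In NRF2 KO CM with CDDO-Me, 0 of these 24 genes rose and 4 fell (median -0.31), and 0 of these 13 were called. These lists were written with earlier results of the data known, and no link between them and the Ms4a genes was tested.

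Markers of other cells moved with some of these results. In bulk libraries, fewer cells of a type and less RNA per cell cannot be told apart. The 5 dendritic cell markers summed to 100.1 to 127 TPM in WT CM/CDDO-Me and 46.9 to 86.1 TPM in KEAP1 KO CM/CDDO-Me, against 0.822 to 2.02 elsewhere, nearly all of it Clec9a at 105 and 60.3 TPM. Of the other dendritic cell markers, Xcr1 was also higher there, at 3.86 and 2.07 TPM against at most 0.117 in the other 6 groups, Flt3 and Siglech stayed near 0, and Zbtb46 was at 0.514 and 0.598 TPM, its lowest group means. The groups with these high sums are those where Ms4a4a and Ms4a7 were lowest and Ms4a4c was highest, and the part of other cells in this was not tested.

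Ms4a4d moved with the fibroblast markers. Within groups its deviations from the group mean followed those of the summed fibroblast markers with r = 0.80 over 24 libraries, while those of Ms4a4a ran against them (r = -0.89), as did Ms4a6d (-0.82) and Ms4a6b (-0.81). These are descriptions over libraries with the same 8 group means removed. In each of the 8 groups replicate 3 had the lowest fibroblast sum and the highest Ms4a4a. Ms4a4d was lowest in replicate 3 in every group except NRF2 KO/vehicle. These r values thus cannot be told apart from whatever the replicate 3 libraries share. The CDDO-Me groups where Ms4a4d was highest had fibroblast sums of 266 to 714 TPM in WT CM and 227 to 947 in KEAP1 KO CM, against 561 to 2838 in the other 6 groups, so that between groups Ms4a4d was highest where these markers were low. The part of fibroblasts in these values was not tested. T and NK cell markers, 7 in all, summed to 3.48 TPM or less in every library, so that the genes known from T cells, Ms4a4b and Ms4a6b, were measured where defining T cell markers such as Cd3e were near 0.

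The genes whose profile was most like a member's, by Pearson r of log2 values over the 24 libraries, were named by a fixed rule of the first 3. For Ms4a4a these were the chemokine Ccl9 (r = 0.951), Trf (0.944), which encodes transferrin, and Add3 (0.941). For Ms4a7 they were the protease Mmp27 (0.956), the lipid enzyme Lpin1 (0.954) and Tns1 (0.95), and for Ms4a6d Olfm1 (0.915), Tarm1 (0.914) and Tnfrsf26 (0.912). For Ms4a4c they were Tchh, Ptpn6 and Zfp281 (each 0.927), for Ms4a4d Praf2 (0.908), Slit2 (0.888) and Rbms2 (0.882), and for Ms4a4b Hsf2 (0.926), Arl2bp (0.921) and Shoc2 (0.91). Trps1 was among the 3 for both Ms4a6b (0.906) and Ms4a6c (0.905). Within the family, Ms4a6b and Ms4a6c were most alike (r = 0.89), the pair that also shares promoter letters and 303 of the 31-base words. Ms4a4a was like Ms4a7 (0.80) and unlike Ms4a4c (-0.77), and Ms4a6d followed Ms4a4a less (0.51) and Ms4a7 hardly (0.10). The 24 points share their 8 groups, so these values describe the design and no p is given.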

How the data were processed

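Poly(A) RNA of 24 BMDM samples was sequenced. The authors deposited 1 table of gene-level TPM values, made with kallisto on GRCm39. Its name speaks of counts, but named rows summed to 999365 to 999801 in every library, so the values are TPM. The depth of each library is thus unknown, and no count test was run. A row without a gene name (0.0199% to 0.0635%) was left out. Groups followed the sample titles.

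Values were scaled by unweighted trimmed means (30% and 5% trims, factors of 0.884 to 1.106) and tested as log2(TPM + 1) with limma 3.58.1 in R 4.3.3, with a variance trend and all 8 groups in 1 fit (16 residual degrees of freedom), for genes above 1 TPM in at least 3 libraries. Benjamini-Hochberg adjustment ran over all 13661 genes in each of 16 comparisons. The procedure was tested on simulated data in which all libraries varied independently. That test cannot show how the fit behaves where libraries with the same replicate number deviate together. All 9 members, the other family genes, 8 reported partners, and the 3 genes most like each member by r were named. Up to 3 genes of each context list were eligible, by adjusted p. The members and lists were chosen with earlier results of these data known.

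Libraries with the same replicate number deviated together: r was 0.02 to 0.72 (mean 0.26) over 84 pairs, and every pair was over 0.1 in 7 of 16 comparisons. The library names carry the same numbers in the same order in every group, but no source says what the numbers share. For those 7 the fit with the number as a block is given where it changed the call of a member. Of 24 replicate pairs within groups 0 were identical (r of 0.903 to 0.991). Alternatives were other scaling, filters, pseudocounts and variance models, the compared groups alone, and each library left out. Promoter windows came from GRCm39 with GENCODE gene models. Some items that were examined are not reported here.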

Additional observations from a re-analysis of the deposited data

Results flagged for a closer look

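In 8 cases the effect of CDDO-Me on a member differed between a CM and control media by an interaction contrast of the limma fit. For Ms4a4a, the marker of alternative activation, the log2 effect was -7.28 in WT CM and 0.10 in media, a difference of -7.38 (adjusted p = 2.22e-06), and with KEAP1 KO CM the difference was -5.86 (adjusted p = 4.29e-05). For Ms4a7 the effect was -2.12 in WT CM, -1.53 in KEAP1 KO CM and -0.06 in media, with differences of -2.06 (adjusted p = 1.56e-05) and -1.47 (adjusted p = 0.000691). Ms4a6d changed sign, from 1.06 in media to -0.79 in WT CM and -0.59 in KEAP1 KO CM, with differences of -1.85 (adjusted p = 2.53e-05) and -1.64 (adjusted p = 0.000111). Ms4a4c rose by 3.10 and 3.14 in the CM and differed by 0.37 in media, with differences of 2.73 (adjusted p = 0.00954) and 2.77 (adjusted p = 0.00857). The 2 sets of contrasts share the media libraries. Groups of 3 are too small for a test of single outlying libraries.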

How the results depend on the processing

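Of the 40 called member values, 686 of 722 alternative values kept direction and call, 36 lost the call and 0 reversed. Of the 88 values not called, 25 of 1606 became called. The number of members called with CDDO-Me in media was 1, and became 4 with array weights and 3 with the replicate block. In NRF2 KO CM it was 2, and became 4 with array weights, 4 with the replicate block, 1 with no filter and 0 with the compared groups alone. For NRF2 KO CM against media with CDDO-Me it was 0, and became 2 with array weights and 4 with the replicate block. With each library left out in turn the count was 5 to 7 for CDDO-Me in WT CM and in KEAP1 KO CM, 1 to 3 in NRF2 KO CM, 2 to 4 for WT CM and 4 to 5 for KEAP1 KO CM against media with CDDO-Me. In comparisons where not every same-number pair was over 0.1, the block added Ms4a6b. This was in WT CM against NRF2 KO CM with vehicle (-0.60, adjusted p = 0.0165) and in the interaction of KEAP1 KO CM with media (0.66, adjusted p = 0.0493). Same-number pairs still had a mean r of 0.15 and 0.29 in these comparisons. Where not every pair was over 0.1, the block changed the call of no other member. Among relatives and partners it lowered the adjusted p of Tmem176a to 0.000117 with CDDO-Me in WT CM (-0.76) and 5.68e-05 in KEAP1 KO CM (-0.81), of Tmem176b to 0.0384 in KEAP1 KO CM (-0.42) and of Vsig4 to 0.0149 in WT CM (-0.63), none called in the reported fit. Where every pair was over 0.1, the block added Tmem176b for WT CM against media with vehicle (-0.74, 0.00294), among others. It also added Clec7a with CDDO-Me in media (0.50, 0.0134) and in NRF2 KO CM (0.53, 0.00711), and Fcer1g for WT CM against media with CDDO-Me (0.77, 0.00995). The cause of these changes was not tested. Without scaling, the median of all genes moved by -0.12 with CDDO-Me in WT CM and -0.17 in KEAP1 KO CM. The depth of each library is unknown, so low members, Ms4a4b and Ms4a4c above all, carry a counting error that could not be given. The number of all genes called moved more than that of the members. Without both NRF2 KO CM replicate 3 libraries it went from 988 to 2590 for WT CM and from 1101 to 2884 for KEAP1 KO CM against media with vehicle, and with CDDO-Me against vehicle from 822 to 2014 in media, from 3809 to 5843 in WT CM and from 3932 to 6109 in KEAP1 KO CM. For WT CM and KEAP1 KO CM against media with CDDO-Me it went from 3660 to 5937 and from 3094 to 5359, for NRF2 KO CM from 26 to 13, and for the interactions from 2093 to 3885 and from 2027 to 4011. Array weights called 4114, 5012, 3523, 7127, 7006, 7525, 6081, 5405 and 5327 genes in the same comparisons other than NRF2 KO CM, in that order, 754 for NRF2 KO CM, 3395 for WT CM against NRF2 KO CM (1449 in the reported fit), 2782 for CDDO-Me in NRF2 KO CM (1313) and 975 for KEAP1 KO CM against WT CM (0). With the compared groups alone, 170 genes were called for WT CM against NRF2 KO CM, 143 for CDDO-Me in NRF2 KO CM, 2076 and 2235 for WT CM and KEAP1 KO CM against media with vehicle, 1601 for CDDO-Me in media, and 3640 and 3434 for the interactions. The replicate block called 1743, 1784, 2550, 1464, 1986 and 160 genes for WT CM and KEAP1 KO CM against media, WT CM against NRF2 KO CM, CDDO-Me in media and in NRF2 KO CM, and NRF2 KO CM against media with CDDO-Me.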
